A study of Mus musculus with 6 samples.

Results

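The genes described here are 10 immediate early genes, Fos, Fosb, Jun, Junb, Jund, Egr1, Klf2, Klf4, Klf6 and Dusp1. They were chosen by symbol, and all 10 were matched by Ensembl identifier among the 55487 genes of the files. They were read in LSK cells, marrow cells sorted for SCA1 and c-KIT and against lineage markers, a gate in which stem and early progenitor cells of the blood are found. There were 3 samples from wild-type mice (WT) and 3 from Brm knockout mice (BrmKO), all on the strain background given in the labels as C56Bl/6. The sources used here do not give the mice's age or whether a sample is 1 mouse or a pool, so p-values measure only the spread between these samples. Marrow was flushed from femurs and tibiae, depleted of lineage-positive cells with a bead kit, stained and sorted into lysis buffer. Brm is the older name of Smarca2, which encodes the motor subunit of some SWI/SNF chromatin remodellers. Which part of the gene was inactivated, and in which cells, is not stated in those sources.

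Immediate early genes are transcribed within minutes of a stimulus, without new protein synthesis, by factors such as SRF and CREB that MAP kinases switch on. FOS and JUN proteins pair to form the transcription factor AP-1, EGR1 and the KLF proteins are zinc finger transcription factors, and DUSP1 is a phosphatase that shuts MAP kinases off again. In blood stem cells these genes are known both as regulators of quiescence and as a response to the stress of dissociation and sorting. Levels are therefore given library by library. They are CPM, read counts scaled to a common TMM-adjusted library size, or, where genes are compared with each other, RPKM, the same divided by the length of a gene's exons in kilobases.

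The libraries held 28.0 to 36.5 M reads in genes. The mean level of Smarca2 was 179 ± 31.9 CPM over the WT libraries and 27.1 ± 0.691 CPM over the BrmKO libraries (SD, n = 3). The gate's own markers were present in every library, Kit at 849 to 1031 CPM and Ly6a, which encodes SCA1, at 18.7 to 35.7 CPM. Reads outside genes made up 8.41% of WT replicate 3 and 9.29% of BrmKO replicate 3, and 5.79% to 6.61% of the remaining libraries. In bulk samples a change in the number of cells of a type and a change in RNA per cell cannot be told apart. PCR reads without molecular identifiers are not independent molecules, so read counts here bound only the counting error.

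The stretch before the start of a gene is where CREB, SRF and EGR1 are known to bind in this class. Below are the 250 bases before the RefSeq start (GRCm38.p6) of Fos and Jun, which had the highest levels, and of Dusp1 and Klf4, which had the smallest unadjusted p between genotypes. They read 5′ to 3′ on the gene's own strand. Capitals mark matches on either strand to the core TGACG of the cyclic AMP response element, to the full element TGACGTCA, which holds that core on both strands, or to the EGR site GCGNGGGCG.
Fos: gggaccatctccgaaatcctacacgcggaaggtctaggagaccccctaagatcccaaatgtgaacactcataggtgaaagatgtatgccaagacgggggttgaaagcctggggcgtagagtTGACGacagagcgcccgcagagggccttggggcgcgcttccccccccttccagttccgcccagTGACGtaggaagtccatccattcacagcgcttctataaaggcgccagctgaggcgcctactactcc
Jun: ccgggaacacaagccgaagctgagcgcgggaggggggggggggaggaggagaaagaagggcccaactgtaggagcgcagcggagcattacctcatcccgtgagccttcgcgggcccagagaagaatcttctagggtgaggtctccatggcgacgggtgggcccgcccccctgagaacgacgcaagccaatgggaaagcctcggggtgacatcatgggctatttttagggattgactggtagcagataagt
Dusp1: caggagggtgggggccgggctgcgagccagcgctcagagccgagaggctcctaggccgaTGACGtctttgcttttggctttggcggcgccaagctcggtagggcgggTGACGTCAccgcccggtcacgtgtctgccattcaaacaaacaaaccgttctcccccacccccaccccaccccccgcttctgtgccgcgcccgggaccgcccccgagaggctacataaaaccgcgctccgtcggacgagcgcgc
Klf4: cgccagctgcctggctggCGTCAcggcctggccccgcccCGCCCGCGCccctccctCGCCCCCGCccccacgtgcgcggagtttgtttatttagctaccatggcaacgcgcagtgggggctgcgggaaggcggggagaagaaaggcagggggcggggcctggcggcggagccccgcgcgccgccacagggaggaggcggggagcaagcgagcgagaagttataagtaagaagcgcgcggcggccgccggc
These windows lie at chr12:85473640-85473889 on the plus strand for Fos, chr4:95052223-95052472 on the minus strand for Jun, chr17:26508473-26508722 on the minus strand for Dusp1 and chr4:55532476-55532725 on the minus strand for Klf4. Of the 10 genes, 9 were in the promoter table, and Egr1 was not. TGACG was found in 6 of the 9, Fos, Fosb, Junb, Klf2, Klf4 and Dusp1, and in 17.8% of the 32851 promoter windows in the table. The EGR site was found in 3 of 9, Fosb, Klf2 and Klf4, against 4.7% of all windows, and the full element TGACGTCA in 1 of 9, Dusp1, 143 to 136 bases before the start, against 1.55%. The CArG box, which SRF binds, and the AP-1 site TGANTCA were found in 0 of 9 windows each, against 1.47% and 6.75% of all windows. The window of Jund, which held no match, ends at base 70697738 of chr8, upstream of the start at 70698949 in the annotation used here for positions and lengths. The window of Dusp1 lies inside that gene's span in the same annotation, which starts at 26562128 of chr17 on the minus strand. The matches are a description of these letters only, and the best known SRF site of Fos lies further upstream than the window. The windows of Jun and Klf6 hold TGACATCA, which differs from TGACGTCA by 1 base and was not searched for.

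Fos and Jun were among the most abundant mRNAs of WT LSK cells, while Fosb and Klf4 were the lowest of the 10 genes. On the per-length scale Fos ranked 7 and Jun ranked 10 among the 15691 genes tested, and Dusp1 ranked 27. Their WT levels were 1116 ± 392 RPKM for Fos, 1077 ± 219 RPKM for Jun and 563 ± 160 RPKM for Dusp1 (SD, n = 3). Fos and Jun overlapped across the WT libraries, and both lay above Dusp1, which in turn lay above all of Junb's values. Next came Junb at 241 ± 42.2 RPKM, Egr1 at 191 ± 78.7, Klf6 at 174 ± 73.7 and Klf2 at 161 ± 88.8 RPKM, a run in which each neighbour overlapped the next. Jund followed at 23.2 ± 8.38 RPKM, apart from its neighbours on either side. Fosb at 7.75 ± 3.57 and Klf4 at 4.05 ± 1.47 RPKM were lowest and overlapped each other. The level of Jund is uncertain, because 52.6% of its exon bases are shared with the antisense gene Gm11175 and the library kit does not mark strand. The shared part was 7.28% in Jun, with Junos, and 7.52% in Junb, with Prdx2, on the opposite strand in both. The exon length of Dusp1, 3311 bases, comes from a span that reaches upstream of its RefSeq start and may count exons before that start. The RPKM and rank of Dusp1 depend on that length.

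Fos and Jun were the main members of their families in every library. Fos made up 99.0% to 99.3% of the summed RPKM of the FOS family (Fos, Fosb, Fosl1 and Fosl2) in every library. Jun made up 77.9% to 82.6% of the summed RPKM of the JUN family (Jun, Junb and Jund) in WT and 82.4% to 82.9% in BrmKO, with overlap between the genotypes. The JUN shares carry the uncertainty of Jund's level, since 52.6% of its exon bases are shared with Gm11175. Fos stood at 1.08, 1.29 and 0.750 times the RPKM of Jun in WT replicates 1 to 3, and at 1.65, 1.64 and 1.11 times in BrmKO. In BrmKO replicates 1 and 2 this ratio was above all WT values, and BrmKO replicate 3 lay inside the WT range.

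Between genotypes, Klf4 showed the largest difference of the 10, and it alone had no overlap between the groups. Klf2, Fosb, Fos and Dusp1 followed with higher means in BrmKO, and the BrmKO means of Jun, Jund and Junb were 1.13, 1.11 and 0.954 times those of WT. None of the 10 passed the test over all genes (edgeR quasi-likelihood test, Benjamini-Hochberg adjusted p under 0.05), a threshold that 22 of 15691 genes passed, or 0.14%, with 0.0829% higher and 0.0574% lower in BrmKO. With DESeq2 1 of the 10 passed, Klf4. The fitted log2 fold change lay above 0 in 9 of 10, with a median of 0.52, against 48.8% of all genes tested and a median of -0.01. Unadjusted p was under 0.05 in 4 of 10, against 5.85% of all genes. The 4, Klf4, Dusp1, Fos and Fosb, were all higher in BrmKO and 0 were lower, where 3.14% and 2.71% of all genes were. The groups did not overlap in 1 of 10, against 11.1%.

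**Figure D1:**
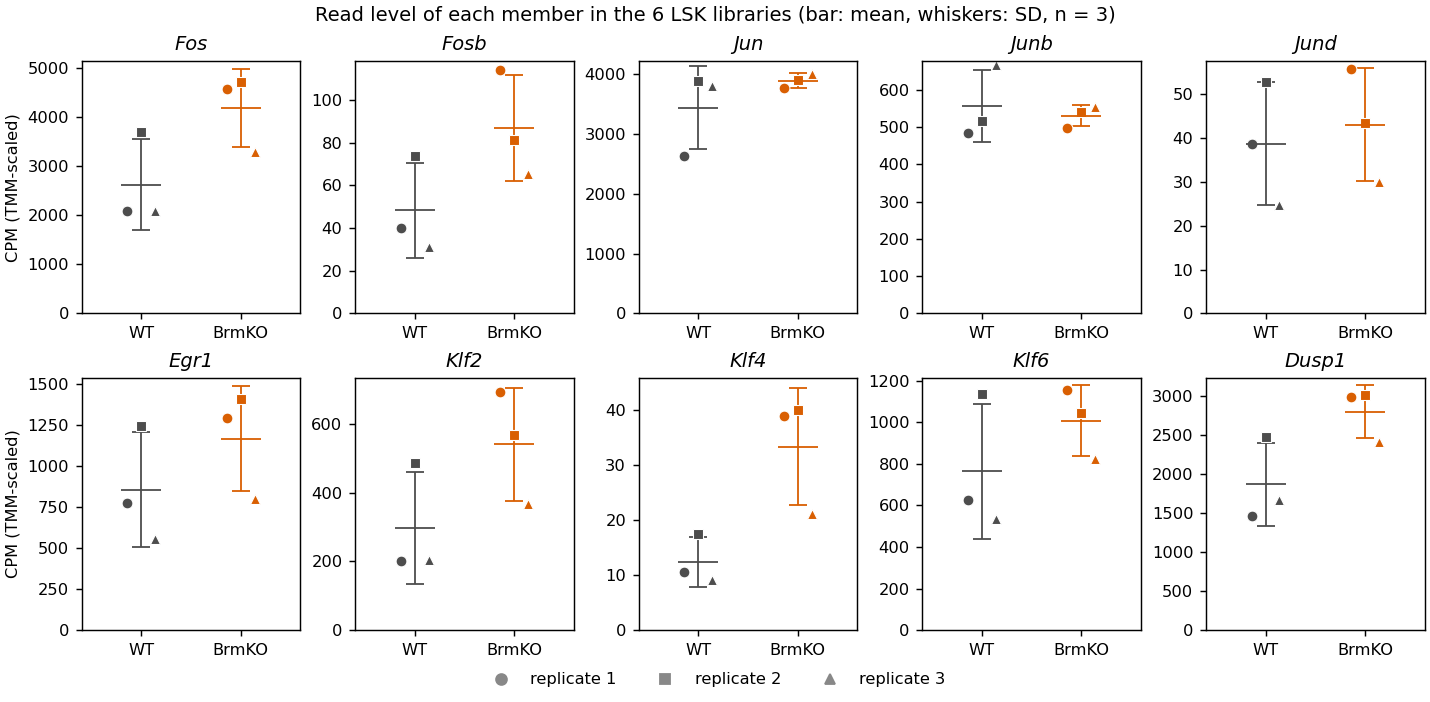
Level of each gene in CPM (linear axis from 0) in 3 WT and 3 BrmKO libraries; symbols give the replicate number, the bar the mean and the whiskers the SD. Klf4 is the gene whose BrmKO points, 20.97 to 39.998 CPM, all lie above its WT points, and WT replicate 2 lies inside the BrmKO range in the other 9 genes.

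Among the AP-1 genes, Fos (ENSMUSG00000021250.13, GRCm38 chr12:85473890-85477273, plus strand) stood at 2087, 3688 and 2098 CPM in WT replicates 1 to 3 and at 4580, 4708 and 3281 CPM in BrmKO replicates 1 to 3. WT replicate 2 was above BrmKO replicate 3, so the groups overlapped. The log2 fold change was 0.67 ± 0.23 (SE; edgeR, adjusted p = 0.706). Fosb (ENSMUSG00000003545.3, chr7:19302696-19310051, minus strand), which encodes a FOS relative that accumulates on repeated stimulation, stood at 40.2, 73.6 and 31.3 CPM in WT and at 114, 81.5 and 65.4 CPM in BrmKO. It overlapped in the same 2 libraries as Fos, with a fitted log2 difference of 0.84 ± 0.34 (edgeR, adjusted p = 0.818).

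Jun (ENSMUSG00000052684.4, chr4:95049034-95052222, minus strand), which encodes the main AP-1 partner of FOS, behaved differently. It stood at 2629, 3884 and 3792 CPM in WT and at 3763, 3893 and 3999 CPM in BrmKO. Only WT replicate 1 was apart, and the other 5 libraries lay within 3763 to 3999 CPM. The fitted log2 difference between genotypes was 0.18 ± 0.14 (edgeR, adjusted p = 0.999), and it was 0.02 without WT replicate 1. Junb (ENSMUSG00000052837.7, chr8:84974484-84978718, minus strand), which encodes a JUN protein known to restrain stem cell proliferation, stood at 484, 517 and 666 CPM in WT and at 498, 539 and 553 CPM in BrmKO. Junb was highest in WT replicate 3, a library in which 5 of the other genes were lowest. The fitted value was -0.07 ± 0.12 (edgeR, adjusted p = 0.999) and turned to 0.08 without that library. Jund (ENSMUSG00000071076.6, chr8:70698949-70700616, plus strand), the JUN gene usually described as less inducible, stood at 38.8, 52.7 and 24.8 CPM in WT and at 55.9, 43.4 and 29.98 CPM in BrmKO. Replicates numbered 3 were lowest in either genotype, and its log2 fold change of 0.15 ± 0.29 (edgeR, adjusted p = 0.999) turned to -0.09 without WT replicate 3 and to -0.08 without BrmKO replicate 1.

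Egr1 (ENSMUSG00000038418.7, chr18:34859823-34864984, plus strand), which encodes a zinc finger factor tied to stem cell quiescence and retention in the niche, stood at 773, 1245 and 554 CPM in WT and at 1293, 1410.1 and 803 CPM in BrmKO. Replicate 3 was the lowest of each genotype, and BrmKO replicate 3 lay close to WT replicate 1. The log2 fold change was 0.45 ± 0.32 (edgeR, adjusted p = 0.999). It ranged from 0.21 without WT replicate 3 to 0.82 without WT replicate 2.

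The 3 KLF genes differed from each other in how far the genotypes lay apart. Klf4 (ENSMUSG00000003032.8, chr4:55527143-55532466, minus strand), which encodes a factor of monocyte differentiation and of pluripotency, stood at 10.5, 17.5 and 9.11 CPM in WT and at 38.9, 39.998 and 20.97 CPM in BrmKO. Those values rest on 259 to 1163 reads per library. The group means were 12.4 ± 4.49 and 33.3 ± 10.7 CPM, a 2.69-fold difference. Every BrmKO library was above every WT library, though BrmKO replicate 3 was nearer to WT replicate 2 than to the other BrmKO libraries. The log2 fold change was 1.43 ± 0.30 (edgeR, adjusted p = 0.194). DESeq2 gave the same fold change with an adjusted p of 6.18e-05, in a fit that called 0.715% of the genes it adjusted, and in the other settings without a replicate block the adjusted p was 0.0684 to 0.765.

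Klf2 (ENSMUSG00000055148.7, chr8:72319033-72321656, plus strand), which encodes a factor of lymphocyte quiescence and of endothelium under flow, stood at 203, 487 and 203 CPM in WT and at 692, 567 and 366 CPM in BrmKO. WT replicate 2 lay above BrmKO replicate 3, and the WT libraries alone spanned a 2.40-fold range. The log2 fold change was 0.86 ± 0.43 (edgeR, adjusted p = 0.913), and 1.42 without WT replicate 2. Klf6 (ENSMUSG00000000078.7, chr13:5861482-5870394, plus strand), which encodes a broadly expressed member of the family induced by injury, stood at 625, 1133 and 533 CPM in WT and at 1157, 1042 and 823 CPM in BrmKO. Here WT replicate 2 was higher than 2 of the 3 BrmKO libraries, and the log2 fold change was 0.40 ± 0.27 (edgeR, adjusted p = 0.990). Klf6 stood at 41.3, 45.0 and 40.6 times the RPKM of Klf4 in WT and at 20.7, 18.1 and 27.3 times in BrmKO, so this ratio was lower in each BrmKO library than in any WT library, a description without a test.

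Dusp1 (ENSMUSG00000024190.7, chr17:26505590-26562128, minus strand), which encodes the MAP kinase phosphatase named above, stood at 1465, 2467 and 1659 CPM in WT and at 2979.8, 3007 and 2402 CPM in BrmKO. WT replicate 2 exceeded BrmKO replicate 3 by a small margin, and the other libraries were apart. The group means were 1864 ± 531 and 2796 ± 341 CPM, with a log2 fold change of 0.59 ± 0.18 (edgeR, adjusted p = 0.589).

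**Figure D2:**
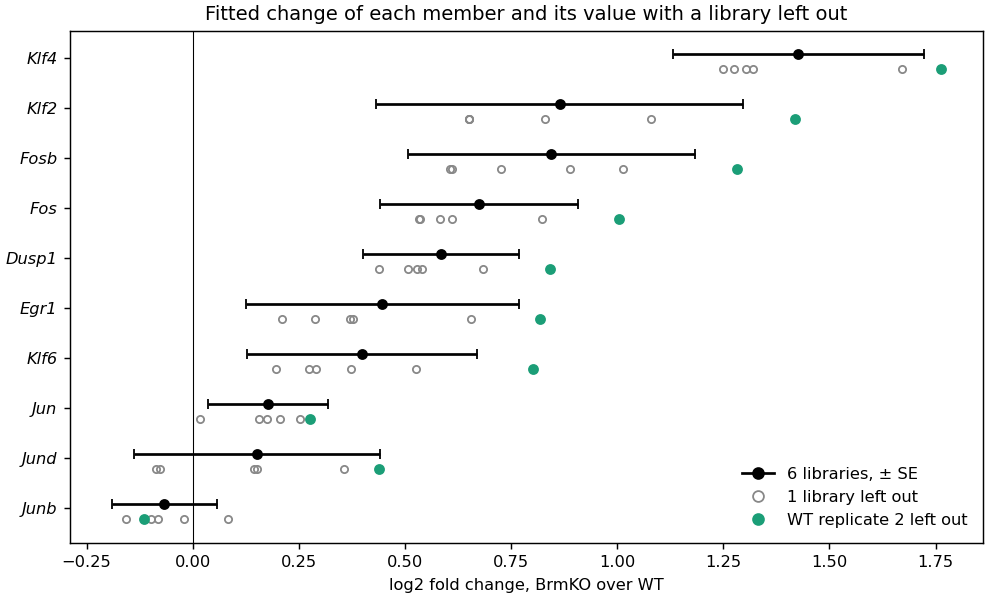
Fitted log2 fold change, BrmKO over WT, of the 10 genes: black points use all 6 libraries, with the SE as bars; open circles leave out 1 library each, and the filled green circle leaves out WT replicate 2. Without WT replicate 2 the values of 9 genes, all but Junb, are the highest of their sets, among them Klf4 at 1.76, Klf2 at 1.42, Fosb at 1.28 and Fos at 1.003.

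The genes varied widely between libraries of 1 genotype, and most of them did so together. Among the 10494 genes with a mean of at least 5 CPM, the within-group SD on the log2 CPM scale had a median of 0.15 and a 90th percentile of 0.31. The SD of the 10 genes ran from 0.18 in Junb to 0.61 in Klf2, and 7 of 10 lay in the top 10% of genes. Jun, Junb and Dusp1 did not. In WT replicate 1 all 10 genes were below their own mean over the 6 libraries, by a median of 0.54 on the log2 scale, and in WT replicate 3 8 of 10 were, by a median of 0.67. The exceptions in WT replicate 3 were Jun and Junb. WT replicate 2 had 8 of 10 above their mean, with a median of 0.22, between the medians of BrmKO replicate 3 at 0.03 (6 of 10 above) and of BrmKO replicates 1 and 2 at 0.47 and 0.41. Together the 10 genes took up 0.830%, 1.34% and 0.972% of all reads in genes in WT and 1.495%, 1.51% and 1.28% in BrmKO. WT replicate 2 thus lay inside the BrmKO range. With WT replicate 2 left out the median log2 fold change of the 10 genes was 0.83, and with WT replicate 3 left out it was 0.38.

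**Figure D3:**
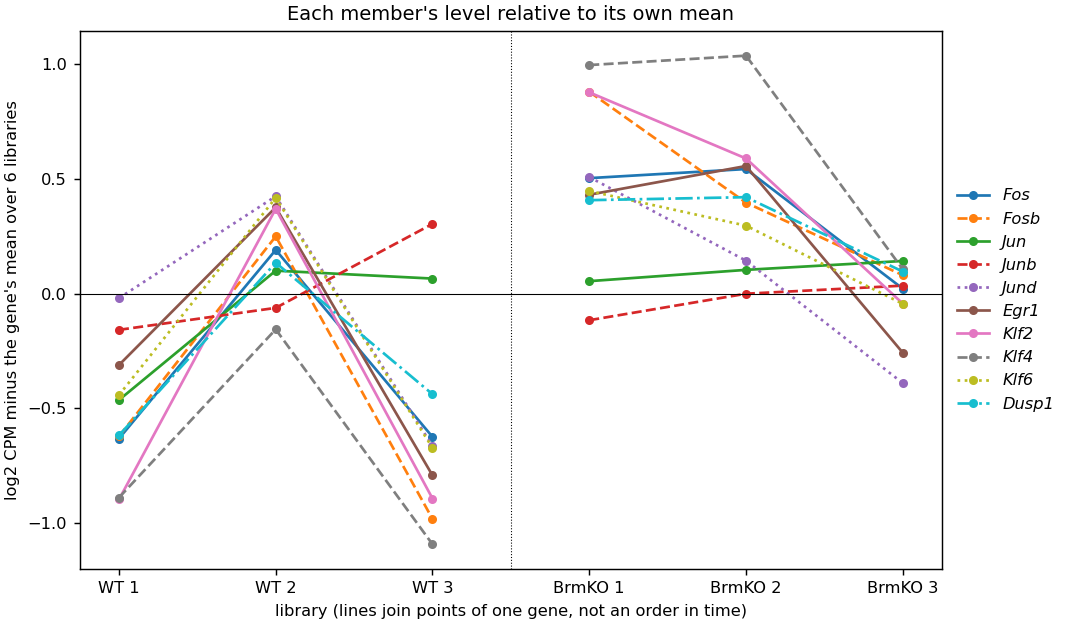
Log2 CPM of each gene minus its own mean over the 6 libraries, by library; lines join the points of 1 gene within a genotype and stand for no order. Most lines dip in WT replicates 1 and 3 and peak in WT replicate 2 and BrmKO replicates 1 and 2, whereas Jun stays near 0 apart from WT replicate 1 and Junb is highest in WT replicate 3.

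Other genes whose profile over the 6 libraries lay nearest to the mean profile of the 10 were Hgfac, Gstm7, Pld2, Ccdc149 and Angptl2. Their root mean square difference from it was 0.09 to 0.16 on the log2 scale, out of 10484 genes compared. For scale, the same difference was 0.08 for Fos, 0.10 for Dusp1 and 0.11 for Klf6, which are themselves part of that mean. The rest of the 10 genes lay further from it than any of these 5. They stood at 0.18 for Egr1, 0.24 for Fosb, 0.28 for Klf2, 0.29 for Jund, 0.35 for Jun, 0.45 for Klf4 and 0.50 for Junb. Hgfac, a serine protease that activates hepatocyte growth factor, stood at 3.95, 6.98 and 4.61 CPM in WT and at 8.46, 8.08 and 5.61 CPM in BrmKO. None of the 5 passed between genotypes (edgeR, adjusted p = 0.678 to 0.977).

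Some other inducible genes had a different order of libraries. Nr4a1, an orphan nuclear receptor gene of the immediate early class, was chosen after its values were seen and stood at 347, 362 and 13.8 CPM in WT and at 294, 129 and 35.7 CPM in BrmKO. It was high in WT replicate 1, where all 10 genes above were below their mean, and low in both libraries numbered 3. Atf3, a stress-induced ATF gene also chosen after its values were seen, stood at 44.5, 54.7 and 1.72 CPM in WT and at 58.9, 20.5 and 2.65 CPM in BrmKO, again lowest in the libraries numbered 3. Dusp5, a phosphatase gene specific for ERK and likewise chosen afterwards, was lowest in the same 2 libraries, at 19.9 and 23.5 CPM against 34.9 to 133 CPM in the other 4. The heat shock genes Hspa1a and Hspa1b, also chosen afterwards, were highest in WT replicate 3, at 1249.6 and 3727 CPM against 326 to 713 and 921 to 1922 CPM elsewhere. In these 5 genes, which are known to react to the handling of cells, the genotypes overlapped. Their part in the differences of the 10 genes was not tested. With both libraries numbered 3 left out, the median log2 fold change of the 10 genes was 0.51, and that of Klf4 was 1.499 (edgeR, adjusted p = 0.0684).

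Relatives of the 10 genes and the other genes of the pathway were then counted in lists. In the other AP-1 and ATF genes 0 of 9 passed in either direction and the median log2 fold change was -0.07. Batf2, a BATF-family gene, had the smallest p and averaged 2.91 CPM over the WT and 4.65 CPM over the BrmKO libraries. Of the other EGR, NAB and NR4A genes 0 of 8 passed, with a median of -0.17. Nab2, which encodes a co-repressor induced by EGR1, had a log2 fold change of 0.33 ± 0.18. Of 14 other KLF genes, 11 were tested and 0 passed, with a median of -0.03. Klf14 and Klf17 had no read, and Klf9, a glucocorticoid-induced gene, went against Klf2, Klf4 and Klf6 at -0.51 ± 0.20. The medians of these 3 lists were thus between -0.17 and -0.03, beside 0.52 for the 10 genes and -0.01 for all genes tested.

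The feedback inhibitors of ERK held 3 genes without overlap between genotypes. Dusp4, which encodes a nuclear MAP kinase phosphatase, stood at 3.56, 3.29 and 2.18 CPM in WT and at 8.02, 7.14 and 7.59 CPM in BrmKO, with a log2 fold change of 1.33 ± 0.25 (edgeR, adjusted p = 0.123). Spry2, which encodes a Sprouty inhibitor of receptor tyrosine kinase signalling, stood at 1.66, 3.20 and 2.22 CPM in WT and at 6.29, 6.27 and 5.99 CPM in BrmKO (1.39 ± 0.29, edgeR, adjusted p = 0.191). Spred2, a related inhibitor, had a log2 fold change of 0.42 ± 0.18. The 3 BrmKO libraries of Dusp4 and of Spry2 lay close together, BrmKO replicate 3 included, unlike those of Klf4. Of the 13 genes tested in this list 0 passed, 5 lay above 0 and 8 below, and the median was -0.02. In 3 of 13 every BrmKO library was above every WT library, against 5.69% of all genes.

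Among 26 other primary response genes 0 passed, 12 lay above 0 and 14 below, and the median was -0.08. Ccn1 and Ccn2, matricellular genes driven by YAP and SRF, lay furthest below. Ccn1 stood at 10.3, 7.38 and 4.04 CPM in WT and at 1.04, 1.92 and 1.74 CPM in BrmKO (log2 fold change -2.21 ± 0.39, edgeR, adjusted p = 0.104), with no overlap. Ccn2 had a log2 fold change of -2.47 ± 0.78, from 270 reads in WT and 46 in BrmKO. Gadd45b, a stress-response gene, had one of 0.58 ± 0.17. Most stromal and endothelial markers also had fitted values below 0, without passing. The summed level of 10 stromal and bone markers was 198 to 371 CPM in WT and 176 to 279 CPM in BrmKO, with 7 of 10 below 0 and a median log2 fold change of -1.60, and that of 7 endothelial markers was 284 to 358 and 263 to 280.2 CPM, with all 7 below 0 and a median of -1.18. Pdgfrb and Pecam1, named for their share of these sums after their values were seen, had log2 fold changes of -0.09 ± 0.10 and -0.01 ± 0.09. Unadjusted p (edgeR) was under 0.05 in 5 of 10 stromal and 2 of 7 endothelial markers, all lower, against 2.71% of all genes. Every BrmKO library was below every WT library in 5 of 10 and 3 of 7, against 5.37% of all genes. No marker of either list was without reads in all libraries, but Pdgfra had 0 reads in each BrmKO library. Their part in the levels of Ccn1 and Ccn2 was not tested.

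Of the upstream transcription factors and kinases 0 of 29 passed, and the median was -0.04. Creb1, which encodes the factor that binds the TGACG element, stood at 92.4, 112 and 113 CPM in WT and at 86.3, 81.2 and 90.5 CPM in BrmKO, without overlap (log2 fold change -0.30 ± 0.10, edgeR, adjusted p = 0.694). Crem, which encodes a relative of CREB that includes the repressor ICER, had a log2 fold change of -0.61 ± 0.21. In 2 of 29 genes every BrmKO library was above every WT library and in 4 of 29 below, against 5.69% and 5.37% of all genes. Of the 11 factors that set the stability of AU-rich mRNAs, a class that holds Fos, 0 passed and the median was -0.08, with Tia1 at -0.20 ± 0.08 and Zfp36l2 at 0.27 ± 0.16.

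Genes known as KLF2 targets in lymphocytes and endothelium mostly had fitted values below 0. None of the 7 passed, 1 lay above 0 and 6 below, and the median was -0.09. S1pr1, the sphingosine receptor gene, and Thbd, thrombomodulin, had log2 fold changes of -0.29 ± 0.17 and -0.53 ± 0.22. In the 16 heat shock chaperone genes 0 passed, all 16 lay below 0 and the median was -0.22. Unadjusted p (edgeR) was under 0.05 in 3 of 16, Hsph1, Hspa8 and Chordc1, against 2.71% of all genes lower in BrmKO. In 2 of 16 every BrmKO library was below every WT library, against 5.37% of all genes.

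**Figure D4:**
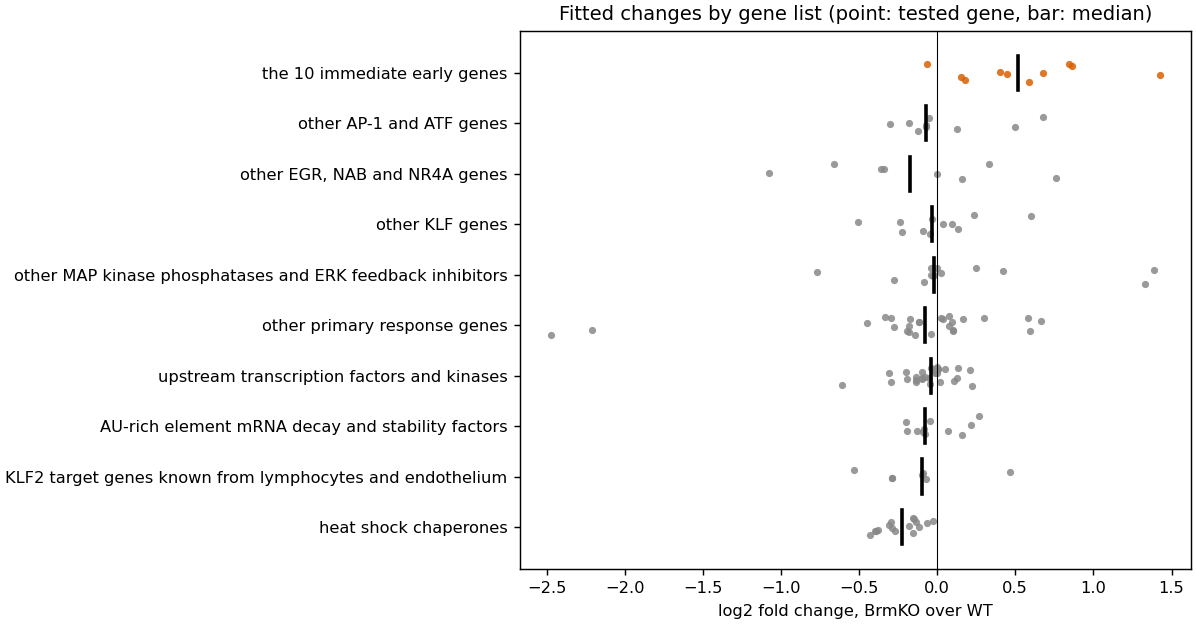
Fitted log2 fold change, BrmKO over WT, of each tested gene in the 10 immediate early genes (orange) and in 9 lists of relatives, pathway and heat shock genes (grey); the bar is the list's median. The median of the 10 genes is 0.52 and those of the other lists lie between -0.22 and -0.02; Ccn1 and Ccn2 are the 2 points below -2.

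Markers of other cell types, among them cells in which Klf2 or Klf4 is known to be high, were examined beside the 10 genes. Endothelial markers, given above, and monocyte and macrophage markers mostly had fitted values below 0. The summed level of 10 monocyte and macrophage markers was 579 to 699 CPM in WT and 519.7 to 603 CPM in BrmKO, with 8 of 10 below 0 and none without reads. Their median log2 fold change was -0.36. Dendritic cell markers summed to 237 to 618 CPM in WT and 599 to 933 CPM in BrmKO, with 5 of 7 above 0 and 0 passing, and were lowest in WT replicate 1. This list includes genes of the MHC class II pathway, which are not particular to dendritic cells. The median log2 fold change of this list was 1.18. Unadjusted p (edgeR) was under 0.05 in 3 of 7, all higher in BrmKO, against 3.14% of all genes. In 2 of 7 every BrmKO library was above every WT library, against 5.69% of all genes. The 8 neutrophil markers summed to 7.48 to 30.6 and 7.42 to 23.4 CPM, highest in the libraries numbered 3. Platelet and megakaryocyte markers summed to 675 to 898 CPM in WT and 446 to 617 CPM in BrmKO, with all 8 tested below 0. Unadjusted p (edgeR) was under 0.05 in 4 of these 8, against 2.71% of all genes lower in BrmKO. In 4 of these 8 every BrmKO library was below every WT library, against 5.37% of all genes. Pf4, which encodes a platelet chemokine, was the 1 gene among them that passed, and it fell from 148, 161 and 169 CPM in WT to 104, 109 and 103 CPM in BrmKO (log2 fold change -0.60 ± 0.09, edgeR, adjusted p = 0.0391). The mast cell and basophil markers summed to 187 to 210.3 and 128 to 161 CPM. Unadjusted p (edgeR) was under 0.05 in 3 of 6 lower and 1 of 6 higher in BrmKO, against 2.71% and 3.14% of all genes. In 2 of 6 every BrmKO library was below every WT library and in 2 of 6 above, against 5.37% and 5.69%. B lineage markers summed to 71.0 to 82.8 CPM in WT and 62.0 to 77.1 CPM in BrmKO. All 6 tested lay below 0, with a median log2 fold change of -0.45 and 0 passing. T and NK cell markers summed to 248 to 287 CPM in WT and 247 to 254 CPM in BrmKO, with 4 of 8 tested above 0, 4 below and 0 passing. Unadjusted p (edgeR) was under 0.05 in 1 of 8 higher and 1 of 8 lower, against 3.14% and 2.71% of all genes. In 2 of 8 every BrmKO library was above every WT library and in 1 of 8 below, against 5.69% and 5.37%. Cd3e, a defining T cell marker, had no read, and Ncr1, which encodes an NK cell receptor, stood at 0.211 to 0.221 CPM in WT and at 0.602 to 1.48 CPM in BrmKO. The WT levels of Ncr1 were near the 3-read floor of 0.0823 to 0.107 CPM, and the summed level came from other markers of the list. The part of other cells in the levels of the 10 genes was not tested.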

How the data were processed

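Polyadenylated RNA of sorted LSK cells was sequenced in 3 WT and 3 BrmKO libraries, with a Smart-Seq v4 kit for low RNA input, per the labels' protocols. The deposited values are raw read counts per Ensembl gene, with no normalisation. Per the submitters' processing notes the tools were bcl2fastq, FastQC, STAR, HTSeq and DESeq2 and the build was GRCm38; those sources give no versions, strand setting or annotation release. The 5 rows that name no gene (outside genes 5.79% to 9.29%, ambiguous 6.23% to 6.47%, without an alignment 1.99% to 2.48%, aligned to several places 4.38% to 5.27%, low quality 0.00292% to 0.00368%) were left out of library sizes and tests.

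Symbols, positions and exon lengths came from GENCODE M21, which matched 55227 of 55487 genes. BrmKO was tested against WT over all 6 libraries, with no covariate, by edgeR's quasi-likelihood test (edgeR 4.0.16, R 4.3.3, robust, TMM, filterByExpr), and p was adjusted over 15691 genes. SE is the log2 fold change divided by the square root of F. A count of 0 allows up to 0.0823 to 0.107 CPM per library, taking 3 reads as the floor. Alternatives were DESeq2 1.42.0, limma-voom (limma 3.58.1), other size factors, filters and prior counts, a replicate block and left-out libraries. The edgeR script was tested on simulated data. All pairs of libraries differed by more than sampling noise (chi-square divided by its degrees of freedom at least 13.16).

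The genes and lists were chosen with earlier results of these data known, so no list was tested as a whole and no p was adjusted over a list. All 10 genes were named, and in each other list the 3 genes with the smallest unadjusted p and any that passed could be named. The 5 most alike genes were those of at least 5 CPM with the smallest root mean square difference, in log2 CPM (prior count 2) centred per gene, from the mean profile of the 10. Names chosen otherwise are marked where they stand.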

Additional observations from a re-analysis of the deposited data

How the results depend on the processing

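Across 15 alternative settings Fos, Fosb, Jun, Egr1, Klf2, Klf4, Klf6 and Dusp1 kept a log2 fold change above 0. Junb turned from -0.07 to 0.082 without WT replicate 3 and to 0.053 without both libraries numbered 3, and Jund turned from 0.15 to -0.088 without WT replicate 3 and to -0.08 without BrmKO replicate 1. Klf4 passed with DESeq2 (log2 fold change 1.43, adjusted p = 6.18e-05), so 1 of the 10 genes passed there, and in the edgeR fit with the replicate number as a block (1.43, adjusted p = 0.0269), where again 1 passed. The cause was not tested. With 1 library left out, 0 of the 10 passed and the ranges were 1.25 to 1.76 for Klf4 (edgeR, adjusted p = 0.0814 to 0.765), 0.65 to 1.42 for Klf2, 0.61 to 1.28 for Fosb, 0.53 to 1.003 for Fos, 0.44 to 0.84 for Dusp1, 0.21 to 0.82 for Egr1, 0.20 to 0.80 for Klf6, 0.02 to 0.28 for Jun, -0.09 to 0.44 for Jund and -0.16 to 0.08 for Junb. The median of the 10 ran from 0.38 to 0.83. Of all genes, 22 passed with 6 libraries, 6 to 36 with 1 left out (with WT replicate 1, 2 or 3 left out 7, 6 and 36, and with BrmKO replicate 1 left out 9), 141 with DESeq2, 58 with no low-count filter and 25 with the replicate block. The replicate numbers were not taken to pair the samples: deviations of same-numbered libraries from their group means correlated over 15691 genes at 0.05, 0.01 and 0.19 for numbers 1 to 3, and WT replicate 2 correlated best with BrmKO replicate 1 (0.17). By chi-square divided by its degrees of freedom, WT replicate 3 was nearer to BrmKO replicate 3 (18.69) than to WT replicates 1 and 2 (40.19 and 43.83). BrmKO replicate 3 was likewise nearer to WT replicate 3 than to BrmKO replicates 1 and 2 (32.02 and 28.92). WT replicate 2 lay at 18.35 from BrmKO replicate 1 and at 18.93 from WT replicate 1. Whether the number 3 marks a shared handling of samples was not tested. Scaling moved the median of all genes by less than 0.1. The lowest count of any of the 10 genes in a library was 259 reads (Klf4), and within-group SDs ran up to 0.61 on the log2 scale with 3 libraries a group.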
